A study of Homo sapiens with 12 samples.

Results

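The genes described here encode the subunits of the mitochondrial respiratory chain and of the ATP synthase that it drives. They were taken by gene symbol: protein-coding genes beginning MT-ND, MT-CO, MT-CYB, MT-ATP, NDUFA (without the NDUFAF assembly factors), NDUFB, NDUFC, NDUFS, NDUFV, UQCR, COX4I, COX5, COX6, COX7, COX8 or ATP5, together with CYC1, SDHA, SDHB, SDHC and SDHD. This rule, which uses no measured value, took 104 of the 63925 gene IDs in the files, 13 encoded in mitochondrial DNA and 91 in the nucleus. Grouped by symbol, the nuclear genes were 40 of complex I (NDUF), 4 of complex II, 10 of complex III, 17 of complex IV (COX) and 20 of the ATP synthase, also called complex V. NDUFA4, now known as a complex IV subunit, and its relative NDUFA4L2 stand with complex I in every count and median by complex, because their symbols put them there. Of the mitochondrial genes, 7 belong to complex I, 1 to complex III, 3 to complex IV and 2 to complex V.

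Polyadenylated RNA was sequenced from 12 neural cultures grown from the human embryonic stem cell lines H9 and H1 by dual SMAD inhibition over 10 weeks. The groups were H9 cultures given dexamethasone, H9 cultures given the DMSO vehicle, H1 cultures given dexamethasone and H1 cultures given the vehicle, with 3 sister cultures in each. Dexamethasone activates the glucocorticoid receptor; it was added at 1 µM and the exposure lasted 6 h. The labels give no genetic modification and no other agent. Each line stands for 1 genotype, and the 3 cultures of a group are sisters, so the p-values reflect how sister cultures vary and say nothing of other lines or differentiations.

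Complexes I, III and IV pass electrons from NADH to oxygen and pump protons out of the mitochondrial matrix, complex II feeds in electrons from succinate, and the ATP synthase uses the returning protons to make ATP. Neurons draw most of their ATP from this pathway. Both genomes are needed. Some core membrane subunits of complexes I, III, IV and V are made inside the mitochondrion, whereas every other subunit, and the whole of complex II, is imported. Mitochondrial DNA is transcribed from its heavy and light strands as long RNAs that are cut into messages, ribosomal RNAs and transfer RNAs, and MT-ND6 is the only message read from the light-strand promoter. Each mitochondrial protein-coding gene is called a message here. MT-ATP8 and MT-ATP6 overlap in position, as do MT-ND4L and MT-ND4, so counts of these pairs need not come from separate RNAs.

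Total counts were 14751168 to 27505804 per library. H9 vehicle culture 3 had the lowest total and stood apart from its sister cultures, so results that rest on it are given with and without it. The cultures held neuronal RNA in both lines. The summed level of 8 neuron markers was 5830 to 6010 CPM (counts scaled to library size) in H9 dexamethasone cultures and 3350 to 3910 CPM in H1 dexamethasone cultures. Other marker sums also moved with the line: 6 markers of proliferating cells summed to 62.2 to 81.2 CPM in H9 dexamethasone cultures against 422 to 431 CPM in H1 dexamethasone cultures, and 6 mesenchymal markers to 184 to 214 CPM against 1420 to 3020 CPM. COL1A1, COL1A2, COL3A1 and POSTN carried the mesenchymal sum. DCN (mean 9.97 against 10.2 CPM) and LUM (22.9 against 22.8 CPM) were level between H9 and H1 dexamethasone cultures. In vehicle cultures neuron markers summed to 4700 to 5390 CPM in H9 and 3500 to 3510 CPM in H1, proliferation markers to 44.1 to 68.7 against 362 to 427 CPM and mesenchymal markers to 198 to 334 against 1780 to 3230 CPM. Astrocyte markers summed to 584 to 903 CPM in H9 dexamethasone cultures and 359 to 440 CPM in H1 dexamethasone cultures. The 6 progenitor markers, 4510 to 4980 CPM in H9 and 4240 to 4980 CPM in H1 dexamethasone cultures, overlapped. SOX2 and HES5 among them, and AIF1 and C1QA, among 6 microglial markers, were listed at 0 in every library. The part of these cell mixtures in the line differences below was not tested, and in bulk RNA fewer cells of a type and less RNA per cell cannot be told apart.

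Not every member could be measured. A filter on low counts kept 81 of the 104 genes, all 13 mitochondrial and 68 of the 91 nuclear ones, and 26 nuclear genes had fewer than 500 counts over all 12 libraries together, 3 of which were tested. Of those 26, 16 lie with at least 95% of their span inside another annotated gene on the same strand, and none of the 16 had more than 73 counts. They include subunits in general use, such as NDUFA9, NDUFV2, SDHD, UQCR11, COX8A, COX6A1 and ATP5PO, with 0, 9, 2, 0, 2, 73 and 0 counts in total. The 63 best-counted nuclear members had at most 44.7% of their span covered in this way. NDUFS1, with 1 count, NDUFA6, with 1 count, NDUFA3, with 84 counts, and UQCRC2, with 345 counts, were low without such cover. EEF1B2, which overlaps NDUFS1, was itself listed at 1 count. The values of these genes are therefore given as listed, not as expression levels, and the cause of the low counts was not tested.

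The tissue-restricted forms of complex IV subunits were at or near 0. COX4I2, the hypoxia- and lung-associated form of COX4I1, COX7A1, the muscle form of COX7A2, and COX8C, the testis form of COX8A, had 0 counts in all 12 libraries, which allows a level of up to 0.0106 CPM (3 counts over all libraries, counting error only). COX8C lies wholly within another gene. COX6A2, the muscle form of COX6A1, had 1 count, COX7B2 had 5 and COX6B2, a testis form of COX6B1, had 62. Their general counterparts were well counted, except COX6A1 and COX8A: COX4I1 averaged 189.0 CPM over all libraries, COX7A2 119.8 CPM, COX6B1 94.31 CPM and COX7B 82.91 CPM. NDUFA4L2, a hypoxia-induced relative of the complex IV subunit NDUFA4, averaged 3.858 CPM against 176.7 CPM for NDUFA4. All 3 genes that encode the identical mature c-subunit of the ATP synthase rotor were present, at 44.73 CPM for ATP5MC1, 139.1 CPM for ATP5MC2 and 126.7 CPM for ATP5MC3.

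Between genes, levels were compared per kilobase of merged annotated exons, which understates nuclear genes whose annotation holds many long isoforms. MT-CO1, the catalytic subunit of complex IV, was the most abundant member at 5464 CPM per kb over the 12 libraries. It was followed by MT-CO2 at 4431 CPM per kb and MT-CO3 at 3573 CPM per kb, the other mitochondrial subunits of complex IV. MT-ND4 had 2874 CPM per kb, MT-CYB of complex III 2009 CPM per kb and MT-ATP6, the proton channel of the ATP synthase, 1998 CPM per kb. MT-ND6 had the lowest counts of the mitochondrial messages, at 75.03 CPM per kb, and the other 6 complex I messages were 1066 to 2874 CPM per kb. Levels in these libraries also depend on how much of each message the poly(A) selection kept, which was not measured. The highest nuclear genes per complex were ATP5F1B, the catalytic beta subunit of the ATP synthase, at 231.5 CPM per kb, NDUFS5 of complex I at 183.1 CPM per kb, COX6B1 of complex IV at 100.8 CPM per kb, UQCRH of complex III at 68.65 CPM per kb and SDHB of complex II at 22.16 CPM per kb. The lowest tested ones were NDUFA3 (0.1146 CPM per kb), UQCRC2 (0.2294), SDHC (6.243), ATP5MC1 (17.11) and COX7A2L (18.28). Thus every mitochondrial message except MT-ND6 lay above the highest nuclear one.

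Mitochondrial messages took a larger share of the RNA in H9 than in H1 dexamethasone cultures, while the summed share of the nuclear subunit genes overlapped between the lines. In dexamethasone cultures the 13 mitochondrial messages made up 3.96%, 3.75% and 4.06% of all counts in H9, against 2.37%, 2.30% and 2.48% in H1. In vehicle cultures they made up 3.35%, 3.64% and 0.289% in H9, the last being culture 3, against 2.36%, 2.16% and 2.43% in H1. The H9 libraries lay above all H1 libraries with the exception of culture 3. The 91 nuclear genes together made up 0.597%, 0.640% and 0.613% in H9 dexamethasone cultures against 0.578%, 0.595% and 0.619% in H1 dexamethasone cultures, and these ranges overlapped. In vehicle cultures they made up 0.611%, 0.658% and 0.418% in H9 and 0.573%, 0.655% and 0.599% in H1.

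**Figure D1:**
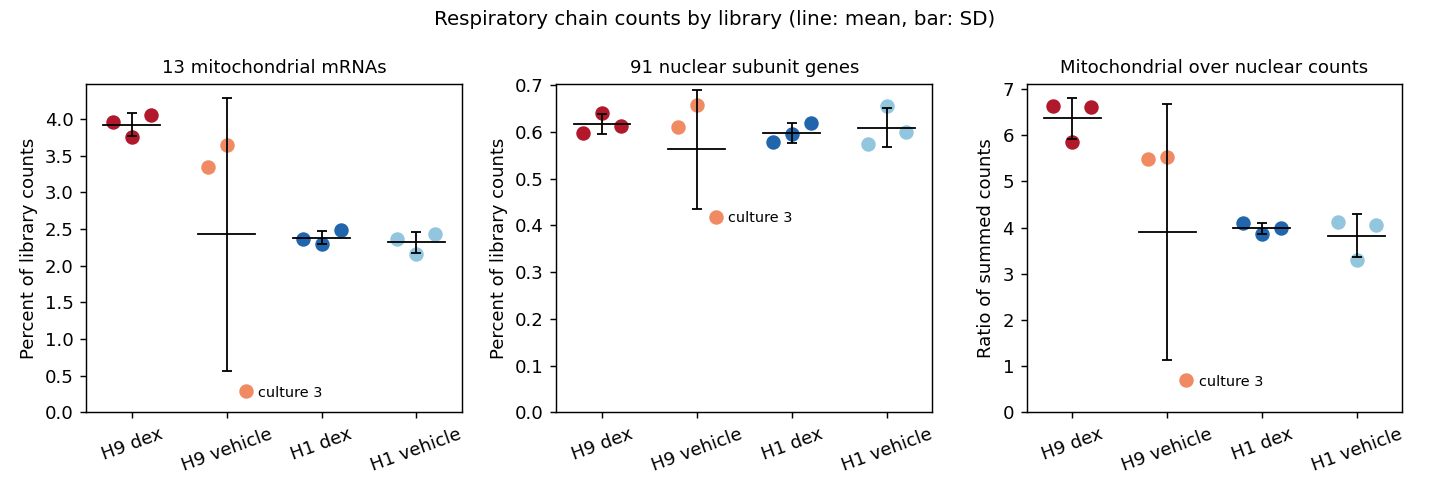
Share of library counts on the 13 mitochondrial messages (left, percent), on the 91 nuclear subunit genes (middle, percent) and the ratio of these sums (right) for each of the 12 libraries by group; points are libraries, horizontal lines group means and bars SD (n = 3). The ratio was 5.86 to 6.63 in H9 dexamethasone libraries and 3.86 to 4.10 in H1 dexamethasone libraries, and H9 vehicle culture 3 lies at 0.693.

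The ratio of mitochondrial to nuclear counts within a library does not depend on how libraries are scaled. It was 6.37 ± 0.442 in H9 dexamethasone cultures and 3.987 ± 0.121 in H1 dexamethasone cultures (SD, n = 3 each), a difference of 0.675 in mean log2 ratio. In vehicle cultures it was 5.49, 5.53 and 0.693 in H9 against 4.12, 3.30 and 4.06 in H1, so that the difference in mean log2 ratio was -0.465 with culture 3 and 0.532 without it. The direction in vehicle cultures thus rests on 1 library.

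Gene by gene, 12 of the 13 mitochondrial messages had a higher mean in H9 than in H1 dexamethasone cultures and MT-ND6 a lower one. Their median log2 fold change was 0.67, beside -0.01 for all 17819 genes tested. With the spread estimated from all 12 libraries, edgeR's quasi-likelihood test (Benjamini-Hochberg adjustment, threshold 0.05) called none of the 12 higher and called MT-ND6 lower; 3 of the 13 had an unadjusted p under 0.05, DESeq2 also called MT-ND6 alone, and 22.5% of all genes were called higher and 21.2% lower. H9 vehicle culture 3 is not in this contrast, but it widens the shared estimate of the spread. Without it the fold changes were the same to within 0.01 and all 12 were called higher and MT-ND6 lower, beside 31.9% of all genes called higher and 32.8% lower.

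MT-ATP8, an accessory subunit of the ATP synthase membrane part, differed most. It had 268.6, 248.6 and 254.9 CPM in H9 dexamethasone cultures, against 65.35, 63.71 and 59.82 CPM in H1 dexamethasone cultures. In vehicle cultures it had 205.0, 215.7 and 4.353 CPM in H9 and 73.17, 56.59 and 84.33 CPM in H1. Every H9 library except culture 3 lay above every H1 library. The log2 fold change of H9 over H1 was 2.03 ± 0.797 (SE) in dexamethasone cultures, with an edgeR adjusted p of 0.057. Without culture 3 it was 2.03 ± 0.102 with an edgeR adjusted p of 1.29e-10, and in vehicle cultures 1.56 ± 0.109 with 8.27e-09. MT-ATP8 lies at chrM:8366-8572 on GRCh38 and its last 46 of 207 bases are also the first bases of MT-ATP6, so a read in those bases cannot be assigned to either gene by position. MT-ATP6 had a smaller log2 fold change in dexamethasone cultures, 0.85 ± 0.67 (SE), and 0.85 ± 0.0661 without culture 3. Why these overlapping genes differed by unlike amounts was not tested, so the MT-ATP8 value is not read as the level of a separate RNA. The MT-ATP8 sequence is shown because this gene had the largest line difference of the set. It was read from the GENCODE 29 transcripts, with the bases shared with MT-ATP6 in capitals.
MT-ATP8: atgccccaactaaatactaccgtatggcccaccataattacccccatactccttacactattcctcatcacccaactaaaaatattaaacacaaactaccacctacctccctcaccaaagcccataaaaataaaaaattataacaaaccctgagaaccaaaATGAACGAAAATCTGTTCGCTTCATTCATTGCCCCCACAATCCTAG

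MT-ND5, a proton-pumping subunit of complex I, had 4517, 3957 and 4671 CPM in H9 dexamethasone cultures and 1748, 1720 and 1951 CPM in H1 dexamethasone cultures. Vehicle cultures had 3534, 3534 and 492.1 CPM in H9 and 1797, 1533 and 1837 CPM in H1. The H9 and H1 libraries did not overlap once culture 3 was set aside. Its log2 fold change was 1.28 ± 0.493 (SE) in dexamethasone cultures, with an edgeR adjusted p of 0.0532, and 1.28 ± 0.0797 with 1.42e-09 without culture 3. MT-CO1 had 12780, 12420 and 13460 CPM in H9 dexamethasone cultures and 6497, 6376 and 7196 CPM in H1 dexamethasone cultures. Its log2 fold change was 0.95 ± 0.619 (edgeR adjusted p = 0.239), and 0.95 ± 0.0673 with an edgeR adjusted p of 6.2e-09 without culture 3. The remaining 9 of the 12 had log2 fold changes between 0.33 for MT-ND1 and 0.85 for MT-ATP6 in dexamethasone cultures.

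MT-ND6 moved the other way. It had 28.28, 28.15 and 25.71 CPM in H9 dexamethasone cultures, against 51.87, 44.07 and 52.28 CPM in H1 dexamethasone cultures. With vehicle the level was 28.79, 27.41 and 35.16 CPM in H9 against 50.45, 41.84 and 58.71 CPM in H1. All 6 H9 libraries, culture 3 included, lay below all 6 H1 libraries. The log2 fold change was -0.85 ± 0.139 (SE) in dexamethasone cultures (edgeR adjusted p = 0.000395) and -0.73 ± 0.139 in vehicle cultures (edgeR adjusted p = 0.00117). Each of the 12 fits with 1 library removed called MT-ND6 lower, in both comparisons. How much MT-ND6 RNA the poly(A) selection kept in each library was not measured, so its counts carry that uncertainty.

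**Figure D2:**
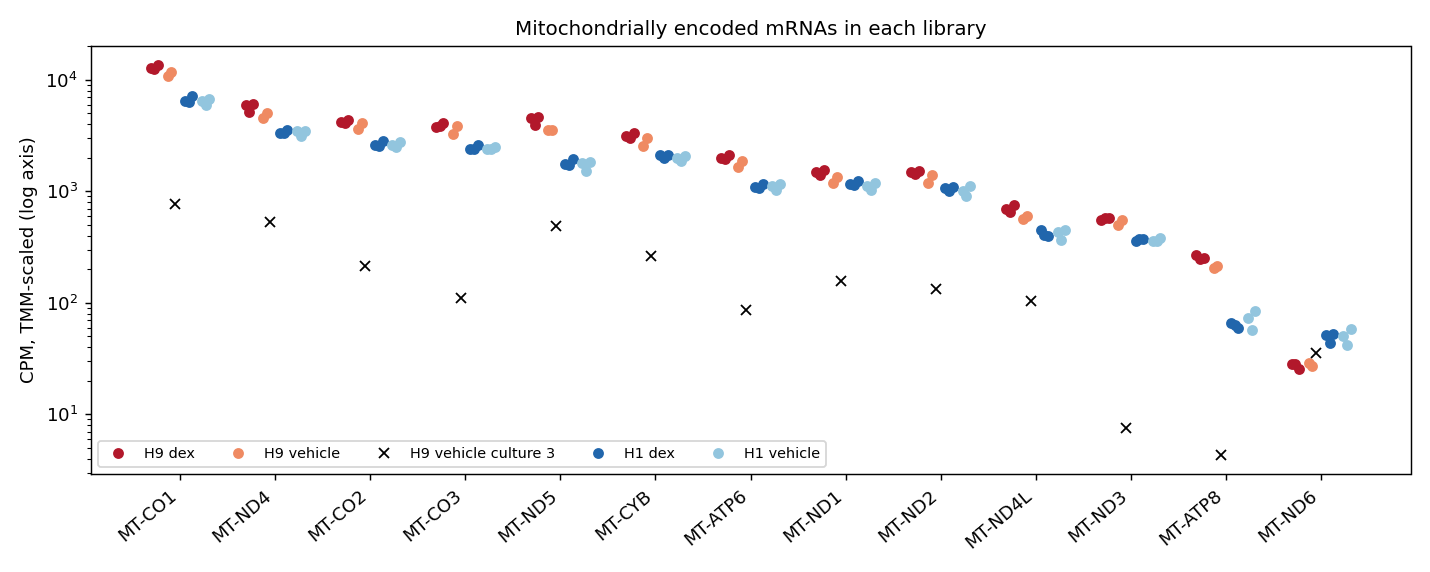
Level of each mitochondrially encoded message in each of the 12 libraries, in TMM-scaled CPM on a log axis, ordered by mean level; points are libraries coloured by group and crosses are H9 vehicle culture 3. For 12 messages the H9 points other than the crosses lie above or reach above the H1 points, and for MT-ND6 all H9 libraries, at 25.71 to 35.16 CPM, lie below all H1 libraries, at 41.84 to 58.71 CPM.

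In vehicle cultures with all libraries, edgeR called MT-ND6 lower and no mitochondrial message higher. Only MT-ND6 had an unadjusted p under 0.05, and DESeq2 called the same number; 25.7% of all genes were called higher and 21.2% lower. Without culture 3, 11 were called higher and MT-ND6 lower, beside 30.1% of all genes higher and 28.6% lower, and MT-ND1 missed at a log2 fold change of 0.18 ± 0.0743 (SE; edgeR adjusted p = 0.0521). Of the 13 messages called in dexamethasone cultures without culture 3, 12 were also called in vehicle cultures. These comparisons share no library, but they share the lines and the estimate of the spread, so they are not independent. The share of all genes called in both is not given here.

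The make-up of the mitochondrial messages also differed between the lines. MT-ATP8 was 0.631 ± 0.033% of mitochondrial message counts in H9 dexamethasone cultures and 0.270 ± 0.024% in H1 dexamethasone cultures (SD, n = 3 each). MT-ND5 was 10.7 ± 0.47% against 7.73 ± 0.16%, and MT-CO1 31.6 ± 0.36% against 28.6 ± 0.48%. Other messages took a smaller share in H9: MT-ND1 3.64 ± 0.012% against 5.07 ± 0.029%, MT-ND2 3.62 ± 0.056% against 4.53 ± 0.11%, and MT-CYB, the cytochrome b of complex III, 7.76 ± 0.081% against 8.91 ± 0.25%. MT-ND6 was 0.0673 ± 0.0065% in H9 and 0.211 ± 0.015% in H1 dexamethasone cultures. For each of these 7 genes the 3 H9 and the 3 H1 dexamethasone libraries did not overlap. These shares add to a fixed total, so they are not independent of each other.

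The 2 mitochondrial ribosomal RNAs were also higher in H9 than in H1 dexamethasone cultures. MT-RNR1 averaged 1980 ± 40.9 CPM in H9 dexamethasone cultures and 669 ± 30.8 CPM in H1 dexamethasone cultures, with a log2 fold change of 1.56 ± 0.275 (SE; edgeR adjusted p = 0.000692). MT-RNR2 averaged 14300 ± 274 CPM against 6360 ± 422 CPM (log2 1.17 ± 0.428, edgeR adjusted p = 0.043). In vehicle cultures MT-RNR1 had 1830, 1940 and 708 CPM in H9 and 729, 713 and 732 CPM in H1, and MT-RNR2 had 12700, 13400 and 2480 CPM in H9 and 6830, 6640 and 6970 CPM in H1. For both RNAs culture 3, the last H9 value, lay below every H1 vehicle library and its sisters above them. There the log2 fold change of MT-RNR1 was 1.04 ± 0.272 (edgeR adjusted p = 0.00822) and that of MT-RNR2 0.48 ± 0.423 (edgeR adjusted p = 0.365), and without culture 3 they were 1.38 ± 0.059 (edgeR adjusted p = 4.13e-11) and 0.94 ± 0.0651 (edgeR adjusted p = 7.76e-09). The ratio of message to ribosomal RNA counts was lower in H9, at 2.51 ± 0.0819 in H9 dexamethasone cultures and 3.327 ± 0.129 in H1 dexamethasone cultures (SD, n = 3 each). Ribosomal RNA counts in these libraries also depend on how much of it the poly(A) selection kept.

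Copies of mitochondrial genes in nuclear DNA share sequence with these messages and can take or lose reads. The most counted was MTATP6P1 on chromosome 1, which is 98.5% identical to MT-ATP6 over 681 bases and had 328 ± 9.71 CPM in H9 dexamethasone cultures and 221 ± 9.19 CPM in H1 dexamethasone cultures. MTND2P28 had 45.6 ± 0.923 and 44.6 ± 1.46 CPM in those groups, and MTCO1P12 7.23 ± 0.442 and 13.2 ± 1.33 CPM. MTND4P12 on chromosome 5, 95.8% identical to MT-ND4, had 8.59, 6.85 and 9.36 CPM in H9 dexamethasone cultures and 0.0386, 0.206 and 0.273 CPM in H1 dexamethasone cultures (log2 5.55 ± 0.745 (SE), edgeR adjusted p = 9.58e-05). Of 404 such copies in the files, 9 passed the filter; how the counting split their reads is not given in the sources used here, so the levels of MT-ATP6, MT-ND2, MT-CO1 and MT-ND4 carry that uncertainty.

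The nuclear subunit genes had smaller line differences. In dexamethasone cultures their median log2 fold change of H9 over H1 was 0.14, and 56 of the 68 tested had a positive value. With all libraries edgeR called 4 higher (22.5% of all genes) and 2 lower (21.2% of all genes), which is a smaller share of the 68 than of all genes in either direction. Without culture 3 it called 30 higher and 5 lower of the 68, beside 31.9% and 32.8% of all genes, so higher calls were a larger and lower calls a smaller share than over all genes. The median was 0.14 in complex I (31 tested), 0.12 in complex II (3 tested), 0.23 in complex III (9 tested), 0.17 in complex IV (9 tested) and 0.08 in complex V (16 tested). In the fit without culture 3 the calls were 13 higher and 3 lower in complex I (with NDUFA4 among the higher and NDUFA4L2 among the lower), 1 and 0 in complex II, 6 and 1 in complex III, 5 and 0 in complex IV, and 5 and 1 in complex V.

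In vehicle cultures with all libraries, 12 nuclear genes were called higher and 1 lower, beside 25.7% and 21.2% of all genes, and the median was -0.11. Without culture 3, 23 were called higher and 2 lower, beside 30.1% and 28.6% of all genes, and the median was 0.15. In that fit 22 genes were called in both treatments, 62.9% of the 35 called in dexamethasone cultures and 88.0% of the 25 called in vehicle cultures. With all libraries 4 were called in both, 66.7% of 6 and 30.8% of 13. These were NDUFS6, SDHA and COX5B, higher in H9, and NDUFS3, lower in H9. The share of all genes called in both treatments is not given here, so the overlaps are not read as a trait of the subunit genes.

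SDHA, the flavoprotein of complex II that oxidises succinate (chr5:218241-256700 on GRCh38, plus strand), had 105.2, 108.9 and 112.9 CPM in H9 dexamethasone cultures, against 80.42, 79.93 and 88.84 CPM in H1 dexamethasone cultures. In vehicle cultures it had 100.7, 112.3 and 112.2 CPM in H9 and 84.32, 83.34 and 81.21 CPM in H1. No H9 library overlapped any H1 library, and culture 3 lay with its sisters. The log2 fold change was 0.39 ± 0.0856 (SE; edgeR adjusted p = 0.00295) in dexamethasone cultures and 0.39 ± 0.0857 (edgeR adjusted p = 0.00317) in vehicle cultures. Its partner SDHB averaged 59.22 ± 1.63 CPM in H9 dexamethasone cultures and 54.51 ± 1.56 CPM in H1 dexamethasone cultures (SD, n = 3 each), and the membrane anchor SDHC 91.97 ± 4.74 and 91.39 ± 1.28 CPM; neither was called. SDHA has near-identical pseudogene copies, and how the counting split reads among them is not given in the sources used here.

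NDUFS6, a small zinc-binding subunit of the peripheral arm of complex I (chr5:1801400-1816605, plus strand), had 65.89, 64.65 and 61.14 CPM in H9 dexamethasone cultures, against 52.14, 49.35 and 53.06 CPM in H1 dexamethasone cultures. Vehicle cultures had 68.65, 67.51 and 75.02 CPM in H9 and 50.75, 51.47 and 47.77 CPM in H1. The lines did not overlap. The log2 fold change was 0.31 ± 0.0832 (SE; edgeR adjusted p = 0.00981) in dexamethasone cultures and 0.49 ± 0.0834 (edgeR adjusted p = 0.000528) in vehicle cultures. Each of the 12 fits with 1 library removed called SDHA and NDUFS6 higher, in both comparisons.

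COX5B, a nuclear subunit of complex IV that binds zinc (chr2:97646040-97648383, plus strand), had 80.40, 96.06 and 94.75 CPM in H9 dexamethasone cultures, against 63.77, 67.51 and 73.18 CPM in H1 dexamethasone cultures. With vehicle the level was 84.99, 96.88 and 114.6 CPM in H9 and 59.10, 81.85 and 68.56 CPM in H1. Within each treatment the lines did not overlap. The log2 fold change was 0.41 ± 0.141 (SE; edgeR adjusted p = 0.0344) in dexamethasone cultures and 0.50 ± 0.142 (edgeR adjusted p = 0.0125) in vehicle cultures. The first call was lost without H9 dexamethasone culture 2 or 3, H1 dexamethasone culture 1 or 2 or H1 vehicle culture 3, at an edgeR adjusted p up to 0.114, and the second without H1 vehicle culture 1, at 0.0622.

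NDUFS3, a core subunit of the peripheral arm of complex I (chr11:47565336-47584562, plus strand), had 52.81, 56.63 and 54.27 CPM in H9 dexamethasone cultures, against 62.42, 62.97 and 71.34 CPM in H1 dexamethasone cultures. In vehicle cultures it had 47.97, 54.94 and 45.77 CPM in H9 and 59.06, 67.25 and 64.23 CPM in H1. The lines did not overlap. The log2 fold change was -0.265 ± 0.0991 (SE; edgeR adjusted p = 0.0473) in dexamethasone cultures and -0.36 ± 0.0994 (edgeR adjusted p = 0.0114) in vehicle cultures. The first call held only without H9 vehicle culture 2 or 3 and reached an edgeR adjusted p of 0.177 without H1 dexamethasone culture 3, and the second was lost without H1 vehicle culture 2, at 0.0508. Its annotated span overlaps PTPMT1 on the same strand over 44.7% and KBTBD4 on the other strand over 36.7%. PTPMT1 was listed at 0 counts over all libraries and KBTBD4 at 11369. Whether reads in these overlaps were shared, dropped or given to NDUFS3 was not tested.

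The 4 promoters are shown because these genes kept their line difference in both treatments. Each is the 280 bases from 250 before to 30 after the RefSeq gene start on GRCh38.p14, plus strand. Capitals mark matches, on either strand, to 3 strings: GCGCATGC, from the site of NRF1, a regulator of many respiratory genes; CCGGAAG, the core read by ETS factors such as the GABP complex; and AAGATGGCG, a YY1 site. The ETS string ends and the YY1 string begins with AAG, so matches to them can overlap.
SDHA (chr5:218070-218349): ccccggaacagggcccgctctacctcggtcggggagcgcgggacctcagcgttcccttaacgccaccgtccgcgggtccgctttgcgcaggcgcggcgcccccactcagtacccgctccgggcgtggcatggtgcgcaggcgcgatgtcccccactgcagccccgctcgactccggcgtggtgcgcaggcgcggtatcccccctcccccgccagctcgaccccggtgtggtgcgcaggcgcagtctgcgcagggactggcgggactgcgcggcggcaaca
NDUFS6 (chr5:1801157-1801436): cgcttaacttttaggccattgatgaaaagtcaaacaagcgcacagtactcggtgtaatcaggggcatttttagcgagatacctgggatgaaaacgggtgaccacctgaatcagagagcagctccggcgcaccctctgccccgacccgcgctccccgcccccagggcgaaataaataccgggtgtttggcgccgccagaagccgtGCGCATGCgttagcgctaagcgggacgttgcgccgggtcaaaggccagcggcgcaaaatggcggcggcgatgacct
COX5B (chr2:97645812-97646091): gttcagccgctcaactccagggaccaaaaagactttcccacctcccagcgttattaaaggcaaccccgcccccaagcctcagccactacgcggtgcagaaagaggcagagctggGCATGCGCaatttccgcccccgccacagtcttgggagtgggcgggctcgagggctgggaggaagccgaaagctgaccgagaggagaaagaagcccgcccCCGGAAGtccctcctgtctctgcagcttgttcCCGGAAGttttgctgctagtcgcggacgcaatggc
NDUFS3 (chr11:47578824-47579103): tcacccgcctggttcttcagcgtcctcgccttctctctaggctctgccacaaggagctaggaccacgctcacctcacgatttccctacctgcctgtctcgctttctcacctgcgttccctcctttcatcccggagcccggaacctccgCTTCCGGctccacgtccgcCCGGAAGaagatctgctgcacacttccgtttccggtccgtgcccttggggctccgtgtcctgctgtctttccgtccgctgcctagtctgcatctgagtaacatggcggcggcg

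COX5B held the NRF1 string beginning at base -136 and the ETS string at -37 and -5, NDUFS6 the NRF1 string at -46, and NDUFS3 the ETS string at -102 and -83, counted from the gene start. SDHA held none of these letters in its window. RefSeq promoters were found for 71 of the 91 nuclear members. The NRF1 string was in 13 of these 71 windows (18.3%), against 3.19% of 27305 promoters of all gene types. The ETS string was in 20 (28.2%) against 10.3%, and the YY1 string in 6 (8.45%) against 1.48%. None of the strings was in all 4 windows. The members are all protein-coding, and the shares among protein-coding promoters alone are not given here. The differences from all promoters are therefore not read as a trait of the subunit genes.

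NDUFA1, a small membrane-arm subunit of complex I encoded on the X chromosome, and UQCRC2, a core subunit of complex III, were called in dexamethasone cultures alone with all libraries. NDUFA1 had 46.74, 50.03 and 48.66 CPM in H9 dexamethasone cultures and 35.81, 38.70 and 38.21 CPM in H1 dexamethasone cultures (log2 0.37 ± 0.115 (SE), edgeR adjusted p = 0.0214). UQCRC2 had 1.234, 0.4594 and 0.7675 CPM against 1.70, 2.146 and 1.172 CPM, which overlap (log2 -1.04 ± 0.369, edgeR adjusted p = 0.0374), and it is among the genes listed at low counts above. In vehicle cultures with all libraries UQCRC2 had a log2 fold change of -0.11 ± 0.369 and NDUFA1 of 0.24 ± 0.115. Without H9 vehicle culture 3, NDUFA1 had 0.35 ± 0.0785 in vehicle cultures and was called there too (edgeR adjusted p = 0.00115). UQCRC2 had 0.13 ± 0.329 in that fit and was not called. The difference between the treatments was not called for either gene. NDUFA1 lost its call without H9 dexamethasone culture 2 or 3 or H1 dexamethasone culture 1 or 3, with an edgeR adjusted p up to 0.0808. UQCRC2 lost its call without H9 dexamethasone culture 2 or 3, H1 dexamethasone culture 1 or 2 or H1 vehicle culture 3, with an adjusted p up to 0.143.

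The largest rises in vehicle cultures with all libraries included genes in which culture 3 was high. ATP5F1D, the delta subunit of the ATP synthase stalk, had 47.08, 59.62 and 124.5 CPM in H9 vehicle cultures and 33.41, 38.86 and 33.88 CPM in H1 vehicle cultures. NDUFB7 of complex I had 64.92, 79.38 and 193.6 CPM against 58.29, 67.52 and 57.99 CPM, and NDUFV1, the NADH-binding flavoprotein of complex I, 114.6, 129.7 and 189.3 CPM against 103.6, 100.1 and 100.3 CPM. The third value of each H9 set is culture 3, the highest of all 12 libraries. Their log2 fold changes were 1.12 ± 0.276 (SE), 0.87 ± 0.307 and 0.51 ± 0.152 with all libraries and 0.59 ± 0.111, 0.23 ± 0.0955 and 0.27 ± 0.0699 without culture 3. In the last fit their edgeR adjusted p was 0.000271, 0.0453 and 0.00375, and all 3 still passed. NDUFB7 lost its call without any 1 of the H1 vehicle cultures, with an edgeR adjusted p up to 0.0952, and NDUFV1 without H1 vehicle culture 2 or 3, at 0.0504 each. The 6 other nuclear genes called higher, named after their values were seen, were NDUFS7, NDUFS8, NDUFB10, UQCRH, its near-identical relative UQCRHL and COX4I1, with log2 fold changes of 0.26 to 0.47. Without culture 3, COX4I1 and UQCRHL were no longer called, at 0.17 ± 0.0787 (SE; edgeR adjusted p = 0.0755) and 0.34 ± 0.143 (edgeR adjusted p = 0.0545), and the other 4 were.

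Without culture 3, the 3 largest rises among nuclear members in dexamethasone cultures were in genes that the full set of libraries did not call; these were chosen after their values were seen. UQCRB, a complex III subunit at the ubiquinone site, had 144.6, 159.0 and 139.1 CPM in H9 dexamethasone cultures and 95.75, 99.61 and 96.54 CPM in H1 dexamethasone cultures. NDUFB4, an accessory subunit of complex I, had 72.11, 83.70 and 76.60 CPM against 52.30, 51.62 and 50.52 CPM. ATP5ME, a membrane subunit of the ATP synthase, had 64.06, 64.53 and 66.93 CPM against 48.63, 44.94 and 47.59 CPM. None of these overlapped between the lines in dexamethasone cultures. The log2 fold changes there were 0.60 ± 0.0645 (SE), 0.59 ± 0.0671 and 0.47 ± 0.0717 without culture 3 (edgeR adjusted p = 6.83e-07, 1.3e-06 and 3.01e-05), and with all libraries the adjusted p-values were 0.125, 0.126 and 0.0573. In the same fit ATP5MC2 was lower in H9, at -0.24 ± 0.0793 (edgeR adjusted p = 0.0132).

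**Figure D3:**
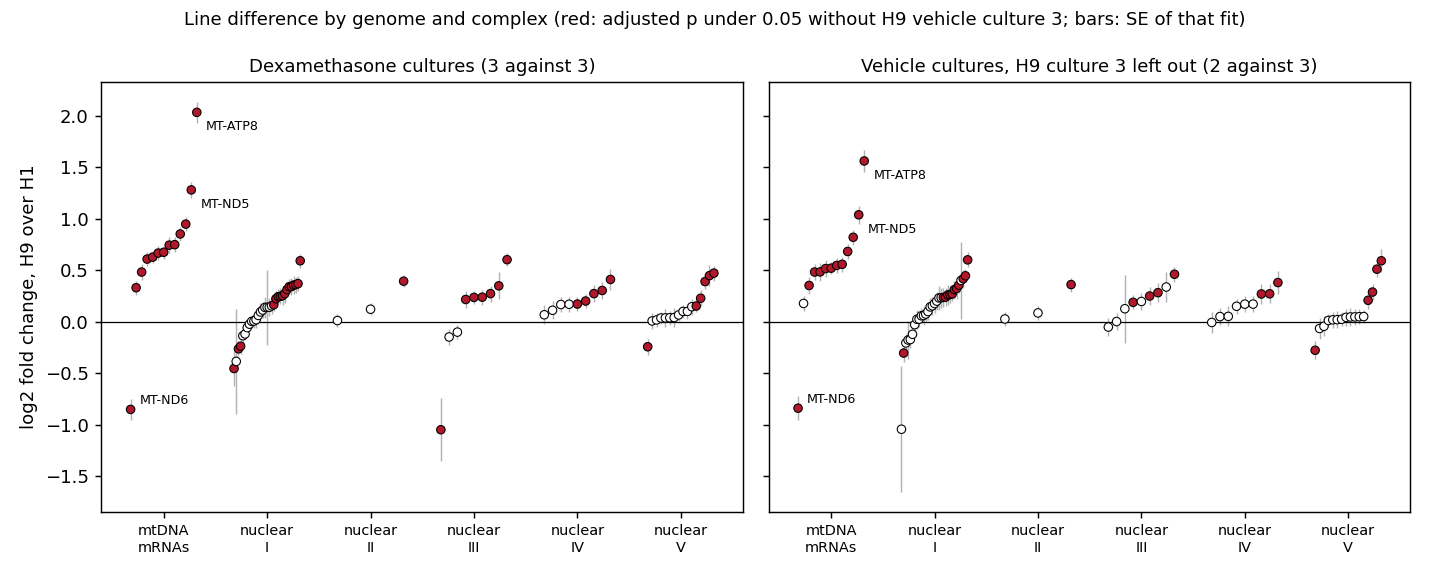
Log2 fold change of H9 over H1 for each tested gene, by genome and complex, in dexamethasone cultures (left, 3 against 3) and in vehicle cultures (right, 2 against 3), in the fit without H9 vehicle culture 3; bars are SE and red points have an adjusted p under 0.05. Mitochondrial messages run from -0.85 for MT-ND6 to 2.03 for MT-ATP8 on the left, and most nuclear genes lie close to 0.

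No member was called for dexamethasone by edgeR. Over both lines, 0 of 81 were called (0.101% of all genes), with 0 at an unadjusted p under 0.05. In H9, 0 were called (0.0673% of all genes), with 2 nuclear genes at an unadjusted p under 0.05, and in H1, 0 were called (0.0505% of all genes), with 0 at an unadjusted p under 0.05. DESeq2 and limma-voom on all libraries also called 0 in each of these. The effect of dexamethasone in H9 minus that in H1 was called for 0 members and for 0% of all genes, with 0 members at an unadjusted p under 0.05; DESeq2 and voom called 0.

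With all libraries, the median log2 fold change of dexamethasone over vehicle in H9 was 0.72 for the 13 mitochondrial messages and 0.20 for the 68 nuclear genes, beside -0.02 for all genes. These values rest on culture 3: without it they were 0.20 and -0.01. The SE of the 12 messages other than MT-ND6 was 0.437 to 0.831 in H9 with all libraries and 0.0616 to 0.109 without culture 3, so the full set of libraries could not resolve differences of this size. In H1 the medians were 0.02 for mitochondrial and -0.02 for nuclear genes. The log2 ratio of mitochondrial to nuclear counts was 2.73, 2.55 and 2.73 in H9 dexamethasone cultures and 2.46, 2.47 and -0.53 in H9 vehicle cultures, and the 3 dexamethasone libraries lay above the vehicle ones. In H1 it was 2.04, 1.95 and 2.00 in dexamethasone cultures and 2.04, 1.72 and 2.02 in vehicle cultures, which overlap.

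Without culture 3, edgeR again called 0 members over both lines (0.774% of all genes), in H9 (0.293%), in H1 (0.326%) and for the difference (0%). At an unadjusted p under 0.05 there were 7, 9, 0 and 3 mitochondrial messages and 0, 1, 1 and 1 nuclear genes in these comparisons. The H9 mitochondrial messages had a positive value in 12 of 13, up to 0.31 ± 0.0884 (SE) for MT-ND5 (edgeR adjusted p = 0.18), and MT-ND6 had -0.04 ± 0.12. DESeq2 without culture 3 differed from edgeR here. It called MT-ND5 (log2 0.33 ± 0.0903, DESeq2 adjusted p = 0.0247), MT-ND4 (0.28 ± 0.0811, DESeq2 adjusted p = 0.036) and MT-ND1 (0.26 ± 0.0765, DESeq2 adjusted p = 0.0491) higher with dexamethasone in H9, beside 1.21% of 12484 genes called higher. Over both lines it called MT-ND1, at 0.17 ± 0.0513 (DESeq2 adjusted p = 0.0447), beside 1.12% of 14940 genes called higher. The edgeR shares without culture 3 rest on 18098 genes and on calls in either direction, so the shares are not alike. MT-ND5 had 4517, 3957 and 4671 CPM in H9 dexamethasone cultures against 3534 and 3534 CPM in vehicle cultures 1 and 2. MT-ND4 had 5882, 5187 and 6125 CPM against 4526 and 5018 CPM. In both genes the dexamethasone libraries lay above the vehicle ones, with 2 libraries left in the vehicle group.

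**Figure D4:**
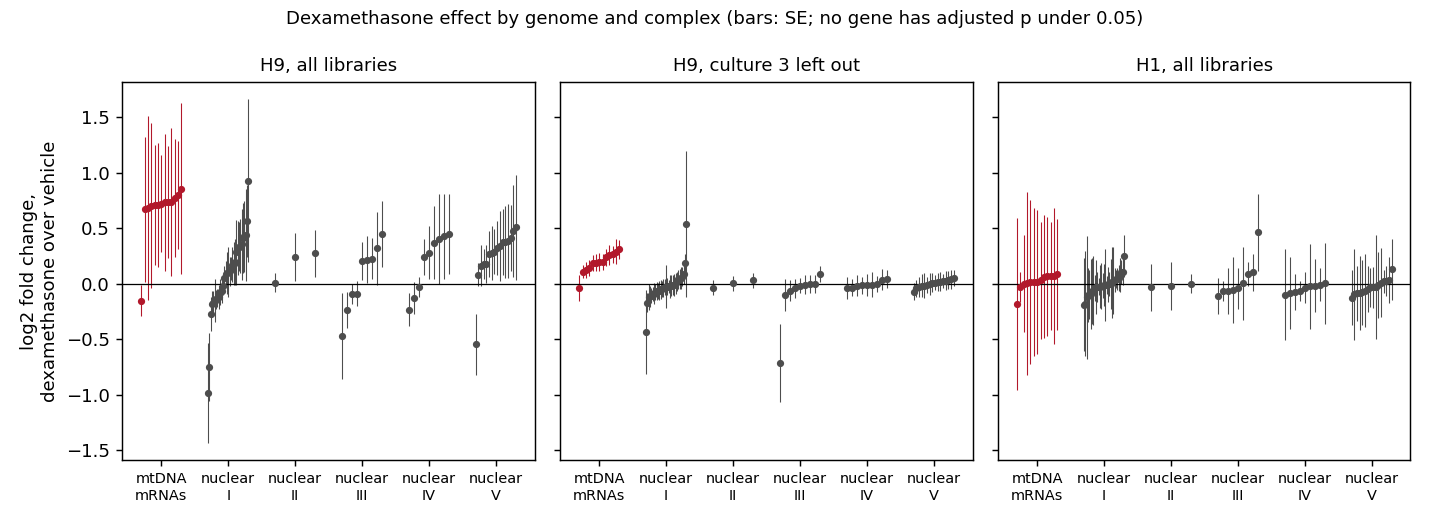
Log2 fold change of dexamethasone over vehicle for each tested gene, by genome (red, mitochondrial; grey, nuclear) and complex, in H9 with all libraries (left), in H9 without vehicle culture 3 (middle) and in H1 (right); bars are SE. The mitochondrial median in H9 is 0.72 on the left and 0.20 in the middle, and no gene has an edgeR adjusted p under 0.05.

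H9 vehicle culture 3 was low in most respiratory chain genes of both genomes, with large differences among them. Against the mean of cultures 1 and 2, its median log2 difference was -3.41 for the 13 mitochondrial messages, -0.96 for the 68 nuclear genes and -0.003 for all 17819 genes tested. The mitochondrial values ran from -6.11 for MT-ND3, at 7.481 CPM in culture 3 and 499.5 and 549.7 CPM in its sisters, to -2.50 for MT-ND4L, and MT-ND6 alone was positive at 0.32. The nuclear values ran from -2.82 for ATP5MC3 to 1.42 for NDUFB7, and 50 of 68 were negative, among them 15 of the 16 complex V genes. Across the 68 nuclear genes the difference went with the mean GC content of the annotated transcripts (Pearson's r = 0.632, Spearman's rho = 0.599), and over 13805 tested genes r was 0.516; these are correlations across genes, which share 1 library and are not replicates. Marker sums also stood apart in this library: progenitor markers were 7920 CPM against 4710 and 4980 CPM in its sisters, oligodendrocyte lineage markers 44.5 against 116 and 111 CPM, and muscle markers 69.1 against 17.7 and 20.0 CPM. A difference in the culture and a difference in the library preparation cannot be told apart here.

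**Figure D5:**
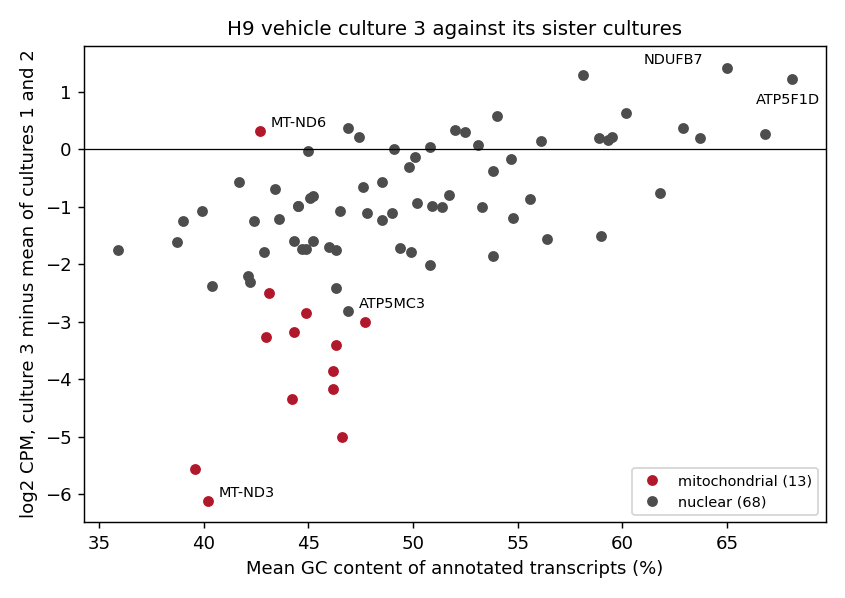
Log2 difference in CPM between H9 vehicle culture 3 and the mean of H9 vehicle cultures 1 and 2 for each tested gene, against the mean GC content of its annotated transcripts in percent; red points are the 13 mitochondrial messages and grey points the 68 nuclear genes. The nuclear genes run from -2.82 to 1.42 with r = 0.632, and 12 mitochondrial messages lie at or below -2.50.

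Genes that serve the respiratory chain were read from 16 lists chosen for this pathway. In H9 against H1 dexamethasone cultures, 22.5% of all genes were called higher and 21.2% lower. Without H9 vehicle culture 3 these shares were 31.9% and 32.8%. Of 12 nuclear regulators of mitochondrial genes, 4 were called higher and 1 lower in H9 than in H1 dexamethasone cultures, and 4 and 5 without H9 vehicle culture 3. PPARGC1A, a coactivator that raises mitochondrial biogenesis, averaged 51.8 ± 1.51 CPM in H9 and 13.6 ± 1.38 CPM in H1 dexamethasone cultures (SD, n = 3 each), with a log2 fold change of 1.93 ± 0.105 (SE; edgeR adjusted p = 9.89e-08). Its relative PPARGC1B averaged 7.86 ± 0.633 and 3.24 ± 0.411 CPM (log2 1.28 ± 0.162, edgeR adjusted p = 6.08e-05), and ESRRG, an orphan nuclear receptor that these coactivators bind, 54.2 ± 4.96 and 13.6 ± 3.23 CPM (log2 1.99 ± 0.239, edgeR adjusted p = 3.94e-05). YY1 was lower in H9, at 90.0 ± 1.40 against 113 ± 5.32 CPM (log2 -0.33 ± 0.0826, edgeR adjusted p = 0.0069). These 4 were also called in vehicle cultures, with log2 fold changes of 1.36, 1.24, 1.53 and -0.25 for PPARGC1A, PPARGC1B, ESRRG and YY1.

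Of 16 genes that copy and transcribe mitochondrial DNA, 0 were called higher and 7 lower in H9 dexamethasone cultures by edgeR, with 7 at an unadjusted p under 0.05 and a median of -0.21. Those named by the lowest p were MTERF1 and MTERF2, regulators of mitochondrial transcription, MGME1, a nuclease of mitochondrial DNA replication, and POLG2, the accessory subunit of the mitochondrial DNA polymerase. MGME1 averaged 12.7 ± 0.508 CPM in H9 and 19.1 ± 0.471 CPM in H1 dexamethasone cultures (SD, n = 3 each; log2 -0.59, edgeR adjusted p = 0.00626). Of 18 tested genes of mitochondrial RNA processing, 0 were called higher and 3 lower (6 at an unadjusted p under 0.05), and of 67 mitochondrial ribosomal protein genes 1 higher and 9 lower, with medians of -0.14 and -0.08. Without H9 vehicle culture 3 these counts were 0 higher and 8 lower of 16, 3 and 9 of 18, and 8 and 18 of 67.

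The 6 tested assembly factors of complex III had a median of -0.35, and 4 of them were called lower in H9 dexamethasone cultures, UQCC1, UQCC2, LYRM7 and BCS1L; UQCC1, needed for the assembly of cytochrome b, averaged 41.2 ± 2.33 CPM in H9 and 57.7 ± 1.79 CPM in H1 (log2 -0.49 ± 0.0976 (SE), edgeR adjusted p = 0.00168). Of 17 complex I factors 2 were called higher and 3 lower, and of 18 complex IV factors 2 higher and 4 lower; without H9 vehicle culture 3 these were 3 and 5, and 6 and 5. SDHAF4, a factor that helps load SDHA into complex II, averaged 13.3 ± 1.15 CPM in H9 and 6.93 ± 0.464 CPM in H1 dexamethasone cultures (log2 0.94 ± 0.125, edgeR adjusted p = 9.43e-05). Of 3 ATP synthase factors, ATPAF2 was called lower, at 32.5 ± 1.03 against 46.7 ± 1.37 CPM.

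Upstream fuel pathways differed in a few enzymes. Of 18 genes of the tricarboxylic acid cycle and pyruvate dehydrogenase, 3 were called higher and 0 lower in H9 dexamethasone cultures, with 6 at an unadjusted p under 0.05. IDH3A averaged 75.7 ± 0.838 CPM in H9 and 49.0 ± 0.691 CPM in H1 (log2 0.63 ± 0.108 (SE), edgeR adjusted p = 0.000589). Of 16 tested glycolytic genes 6 were called higher and 1 lower, among them HK1, the main hexokinase of brain, at 381 ± 16.9 against 221 ± 10.3 CPM, PFKP at 202 ± 14.6 against 97.9 ± 7.25 CPM, and HK2, the lower one, at 26.0 ± 1.57 against 39.7 ± 3.85 CPM. Of 13 genes of cytochrome c and coenzyme Q, 1 was called higher and 4 lower, of 16 import genes 1 higher and 0 lower (4 at an unadjusted p under 0.05), and of 75 cytosolic ribosomal protein genes 2 higher and 3 lower. Without H9 vehicle culture 3 the counts were 5 higher and 4 lower for the tricarboxylic acid cycle, 8 and 1 for glycolysis, 3 and 7 for cytochrome c and coenzyme Q, 2 and 6 for import, and 9 and 11 for cytosolic ribosomal proteins. In that fit 32.8% of all genes were called lower. The import genes called lower included TOMM22 at -0.31 ± 0.0727 (SE, edgeR adjusted p = 0.00167). In the dexamethasone comparison over both lines, edgeR called 0 genes of any of the 16 lists, with at most 2 in a list at an unadjusted p under 0.05.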

How the data were processed

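The authors deposited 1 table per library with whole-number counts of reads for every gene ID and no normalization. STAR 2.5.3a and HTSeq were used with hg38 and GRCh38.p10, per the submitters' processing notes. Which annotation was counted, whether strand was used and how multiply matching reads were handled is not given in the sources used here. Gene positions, exon lengths and transcripts came from GENCODE 29 and promoters from RefSeq (GRCh38.p14).

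Genes were kept by filterByExpr of edgeR 4.0.16 (17819 kept) and TMM factors scaled the libraries. Differences were tested by edgeR's quasi-likelihood F-test, with 1 mean per group over all 12 libraries (8 residual degrees of freedom) and Benjamini-Hochberg adjustment over all genes, threshold 0.05; a standard error is the absolute log2 fold change over the root of its F statistic. CPM are TMM-scaled, and levels are mean ± SD over 3 cultures. The fit was tested on simulated data.

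Members, lists and alternatives were chosen with earlier results of these data known. Named genes are the 13 mitochondrial messages, for each line comparison the 5 nuclear members with the largest rise and fall among those called with a mean of at least 1 CPM, the tissue forms, the highest and lowest gene per complex, and up to 4 genes per list by lowest p; other names were chosen after their values were seen. Same-numbered cultures of different groups had r from -0.159 to 0.179 in their deviations, and different-numbered ones from -0.178 to 0.184, so numbers were not used as pairs. These ranges include pairs across lines. Within a line, same-numbered dexamethasone and vehicle cultures had r of 0.179, 0.1 and 0.05 in H1 and -0.015, 0.113 and 0.012 in H9. Pairing within a line was not tested separately. No 2 sister libraries agreed within sampling noise (chi-square per degree of freedom of at least 4.08). Alternatives were RLE size factors, library sizes without mitochondrially encoded genes, no filter, DESeq2 1.42.0, limma-voom 3.58.1 with sample quality weights, only the groups contrasted, culture number as a block, and each library left out. Total counts of 14751168 to 27505804 set the counting error.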

Additional observations from a re-analysis of the deposited data

How the results depend on the processing

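Between the lines, the number of nuclear genes called depended on H9 vehicle culture 3. In dexamethasone cultures it was 6 with all libraries, 2 to 35 when 1 library was left out (35 without culture 3, 2 without H9 dexamethasone culture 2 or 3 or H1 dexamethasone culture 1, 3 without H1 dexamethasone culture 2 or H1 vehicle culture 3), 3 with no filter, 33 with quality weights and 37 with only the groups contrasted. With culture 3 left out it was 39 with a replicate block, 36 with library sizes without mitochondrially encoded genes and 37 with DESeq2. In vehicle cultures it was 13, 5 to 25 when 1 library was left out (25 without culture 3, and 5, 8 and 7 without H1 vehicle culture 1, 2 and 3), 8 with no filter, 32 with quality weights, 3 with only the groups contrasted, and 34, 25 and 24 in those 3 fits without culture 3. Mitochondrial messages called in dexamethasone cultures were 1 with all libraries, 1 to 13 when 1 library was left out, 3 with no filter, and 13 with quality weights, with only the groups contrasted and in the 3 fits without culture 3. In vehicle cultures they were 1, 1 to 12 when 1 library was left out, 10 with quality weights, and 13, 12 and 13 in those 3 fits. For dexamethasone, 0 members were called in every fit except DESeq2 without culture 3, with 3 mitochondrial messages in H9 and 1 over both lines. Between the lines, edgeR called 22.5% of all genes higher and 21.2% lower in dexamethasone cultures, and 31.9% and 32.8% without culture 3. In vehicle cultures these shares were 25.7% and 21.2%, and 30.1% and 28.6% without culture 3. For the other fits the line shares of all genes are not given here, so their counts cannot be set beside them.

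The difference in log2 ratio of mitochondrial to nuclear counts between lines was 0.675 in dexamethasone cultures, 0.645 to 0.733 when 1 library was left out, and 0.532 as the difference of the genes' medians. In vehicle cultures it was -0.465 and ranged from -0.966 to 0.532 when 1 library was left out. For dexamethasone in H9 it was 1.20 (0.208 to 1.71), over both lines 0.635 (0.136 to 0.886), in H1 0.0652 (-0.0386 to 0.122), and for the effect in H9 minus that in H1 1.14 (0.143 to 1.64).

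In vehicle cultures the log2 fold change of some mitochondrial messages changed sign. Over the 12 fits with 1 library left out, the values ran from -0.337 to 0.681 for MT-ATP6, -0.142 to 0.819 for MT-CO1, -0.455 to 0.557 for MT-CO2, -0.525 to 0.546 for MT-CO3, -0.498 to 0.482 for MT-CYB, -0.735 to 0.177 for MT-ND1, -0.618 to 0.351 for MT-ND2, -0.527 to 0.519 for MT-ND3, -0.402 to 0.515 for MT-ND4 and -0.325 to 0.483 for MT-ND4L; the highest of each came without culture 3. With the replicate block on all libraries, MT-ATP6 had -0.054, MT-CO2 -0.167, MT-ND4 -0.129 and MT-ND4L -0.0935. With quality weights, MT-CO3, MT-CYB, MT-ND1, MT-ND2 and MT-ND3 had 0.497, 0.45, 0.136, 0.303 and 0.434. Without culture 3 they had 0.576, 0.514, 0.217, 0.396 and 0.534 with a replicate block, 0.546, 0.482, 0.177, 0.351 and 0.519 with library sizes without mitochondrially encoded genes, and 0.544, 0.48, 0.175, 0.349 and 0.517 with DESeq2. Fits without culture 3 beyond leaving it out alone were added after the data were seen.

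The replicate block on all libraries moved none of these counts by more than 1.5 times and ended 1 of the 39 calls or values of named genes. RLE size factors and library sizes without mitochondrially encoded genes on all libraries each ended 1 call and reversed none. Sister cultures, 1 low library and genes with same-strand overlap limit these results.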
